A study of Mus musculus with 55 samples.

Results

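The genes described here load and start the replicative helicase at origins of DNA replication, and their transcripts were followed through 5 stages of B cell development, each sorted from the bone marrow of mice. The members were every probe set whose array annotation named Mcm2, Mcm3, Mcm4, Mcm5, Mcm6, Mcm7, Cdc6, Cdt1, Orc2 or Cdc45. This gave 13 probe sets, with at least 1 for each of the 10 genes, of 13069 probe sets on both array sets. Mcm6, Orc2 and Cdc45 had 2 probe sets each, Mcm3 and Cdc6 were on the b set, and the other 8 genes were on the first set. All 13 passed the filter on dim probe sets, which asked for 5 of 26 preparations above a floor, as did 10229 probe sets in all.

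Pre-BI cells carried B220 and c-kit, and pre-BII cells carried B220 and CD25 without surface immunoglobulin and were split by size. Surface IgM marked the last 2 populations, immature B cells with low B220 and mature B cells with high B220. The labels give no strain, age, treatment or animal number for any population, and they name no genetic model. Pre-BI cells contributed 6 of the 26 preparations (sorts 1, 2, 3, 8, 9 and 10). There were 5 of large pre-BII cells (sorts 1, 2, 8, 9 and 10) and 5 of small pre-BII cells (sorts 1, 3, 8, 9 and 10). Immature B cells (sorts 1, 2, 8, 9 and 11) and mature B cells (sorts 1, 3, 8, 9 and 11) added 5 each. Whether preparations came from separate animals is not stated, so p-values measure the spread between preparations only.

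A replication origin is licensed before S phase, when the origin recognition complex, of which Orc2 is a subunit, recruits Cdc6 and Cdt1, and these load double hexamers of Mcm2 to Mcm7 onto DNA. At the start of S phase, kinases and firing factors join Cdc45 and the GINS proteins to the loaded hexamer, which then unwinds DNA at the fork. Many of these genes are known targets of the E2F transcription factors in dividing cells. In the marrow, large pre-BII cells are the dividing progeny of cells that have made a productive heavy chain, and small pre-BII cells are resting cells that rearrange light chain genes.

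The promoters are described before the levels, with E2F binding as textbook background. Whether the words found bear on the levels in these cells was not tested. RefSeq promoter windows of 300 bases (250 before and 50 after the start site, build GRCm38.p6) were given for 9 of the 10 genes, and Mcm4 had no entry. E2F-like words were searched on both strands as TTTCCCGC, TTTCGCGC, TTTGCCGC, TTTGGCGC, TTTCCCGG, TTTCGCGG, TTTGCCGG and TTTGGCGG. The 9 genes had 11 windows between them, and at least 1 word was found in 6 of the 11 (Mcm3, Mcm5, Mcm6, Mcm7, Cdc6 and Cdt1), against 4.51% of all 32851 promoter windows. The stretches around the words show their spacing, and stretches of Mcm2 and Orc2 without a word are set beside them. Sequences are 5′ to 3′ on the gene's strand, capitals mark the E2F-like words, and positions count from the start site as 1.
Mcm3, positions 19 to 47, chr1:20820266-20820294, minus strand: gGCGGGAAAacttgggaagtTTTGGCGCc
Mcm5, positions -165 to -130, chr8:75109344-75109379, plus strand: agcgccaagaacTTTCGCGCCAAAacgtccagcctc
Mcm6, positions -120 to -30, chr1:128359735-128359825, minus strand: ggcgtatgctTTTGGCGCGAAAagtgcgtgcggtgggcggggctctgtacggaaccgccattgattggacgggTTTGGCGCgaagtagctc
Mcm7, positions -177 to -146, chr5:138172029-138172060, minus strand: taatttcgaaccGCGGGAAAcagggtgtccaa
Cdc6, positions -150 to -119, chr11:98908001-98908032, plus strand: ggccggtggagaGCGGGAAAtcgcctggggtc
Cdt1, positions -15 to 15, chr8:122568000-122568029, plus strand: cgaggctgaagCCGCGAAAgttgcgcggaa
Mcm2, positions -100 to -1, chr6:88898781-88898880, minus strand: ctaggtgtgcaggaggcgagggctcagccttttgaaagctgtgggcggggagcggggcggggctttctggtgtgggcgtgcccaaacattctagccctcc
Orc2, positions -100 to -1, chr1:58505110-58505209, minus strand: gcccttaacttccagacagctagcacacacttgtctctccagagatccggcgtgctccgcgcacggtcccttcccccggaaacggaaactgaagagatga

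In Mcm5 and in the upstream pair of Mcm6, words on opposite strands overlap and share their central letters, so that each pair spans 12 bases. Mcm7 and Cdt1 each held a further word after the start site, at positions 17 to 24 and 33 to 40. No word lay in the windows of Mcm2, Orc2 or Cdc45, which says only that these exact letters are not in those windows. CCAAT, the word read by the factor NF-Y, was present in 9 of the 11 windows and absent from Cdc6 and Cdt1, against 37.4% of all windows. The CHR-like words TTTGAA and TTCGAA were present in 3 of the 11 (Mcm2, Mcm7 and Cdc45), against 19.2% of all windows.

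**Figure D1:**
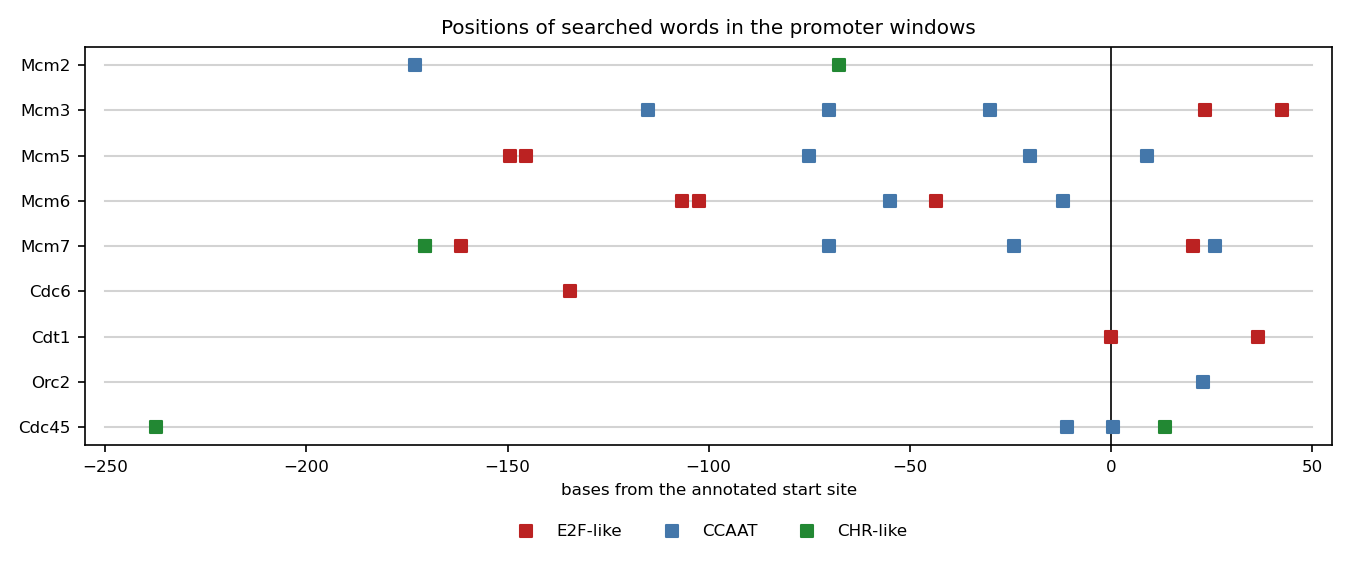
Positions of E2F-like (red), CCAAT (blue) and CHR-like (green) words in the first-listed promoter window of each of 9 genes, as bases from the annotated start site on the horizontal axis. E2F-like words lie in 6 genes, both before and after the start site, and in none of Mcm2, Orc2 and Cdc45.

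Levels below are intensities after quantile normalisation, on a linear scale that can fall below 0. Negative values set a noise limit of 251 for the first set and 319 for the b set, and folds compare means of log2 levels raised to that limit, given with their SE on the log2 scale. "At least" marks a fold against a population of which most or all preparations lay under the limit, since the limit then sets it. Adjusted p-values come from 1 limma fit of all 26 preparations, adjusted by Benjamini-Hochberg across the 10229 probe sets tested. A level on 1 probe set is not set against a level on another. In RNA of sorted populations, fewer cells of a type that expresses a gene and less RNA of that gene per cell cannot be told apart.

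Of 15 B lineage markers measured, some separated the sorts and others were dim or above the noise limit throughout. Dntt, the terminal transferase of early precursors, lay at 7592 to 8474 in pre-BI cells and at 498 or lower elsewhere. Fcer2a, which encodes CD23, read 4409 to 7728 in mature B cells, 1019 to 2176 in immature B cells and 286 or lower before them. Pax5 exceeded the noise limit in 1 pre-BI preparation and in no other population. The gate genes Kit and Il2ra were dim. Kit exceeded the noise limit in 2 of 6 pre-BI preparations, and Il2ra, which encodes CD25, in none of 5 large and 1 of 5 small pre-BII preparations. Of 10 granulocyte and macrophage markers, 5 to 7 exceeded the limit somewhere in each population, and their summed level was highest in pre-BI cells (6398 to 19976). Large pre-BII cells summed to 4535 to 11073, small ones to 4270 to 6061, immature B cells to 5087 to 7724 and mature B cells to 7672 to 11464. The 5 erythroid markers measured, mostly Hba-a1, summed to 9344 to 14171 in large and 4687 to 12748 in small pre-BII cells. Their sums were 7127 to 15891 in pre-BI, 10104 to 14616 in immature B and 10779 to 16348 in mature B cells. Car2, Alas2 and Klf1 each exceeded the limit in some preparations of every population, Car2 in all 6 pre-BI and all 5 mature B preparations. Epor was under the limit in every population. Sums of 8 T and NK cell markers were 1020 to 3227 in pre-BI and at most 1096 in every other population. Gzma exceeded the limit in all 6 pre-BI preparations (836 to 2416) and in 3 large pre-BII ones, and Thy1 in 2 pre-BI preparations. Cd3e exceeded it in 2 large pre-BII, 3 small pre-BII and 1 immature preparation, and Cd4 in 1 small pre-BII preparation. Cd8a, Cd3d, Cd3g and Gzmb were under the limit in every preparation. The part of these other cells in the results was not tested. The probe set for 18S ribosomal RNA read 156 to 18619 in sorts 1 to 3 of the first set and -224 to 68 in sorts 8 to 11. On the b set it read -39 to 16530 (median 9359) in sorts 1 to 3 and -39 to 263 (median 32) in sorts 8 to 11. The ranges there overlapped, although the medians lay far apart.

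All 6 helicase subunits and Cdc45 on aa407116_rc_s_at differed across the 5 populations. Orc2, Cdc6, Cdt1 and Cdc45 on aa407174_s_at (adjusted p = 0.403 in the moderated F test) did not pass. In the moderated F test, 8 of the 13 probe sets (7 genes) passed, against 15% of all tested probe sets. The division fell between large and small pre-BII cells. From large to small pre-BII cells, 8 of 13 probe sets (7 genes) fell and none rose, against 3.22% of all tested probe sets that fell. The median log2 difference in the fit was -2.37 over the 13, against 0.06 over all tested, and 12 of 13 were negative. Levels of the 8 did not overlap between the large and small preparations, which held for 5.77% of all tested probe sets.

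**Figure D2:**
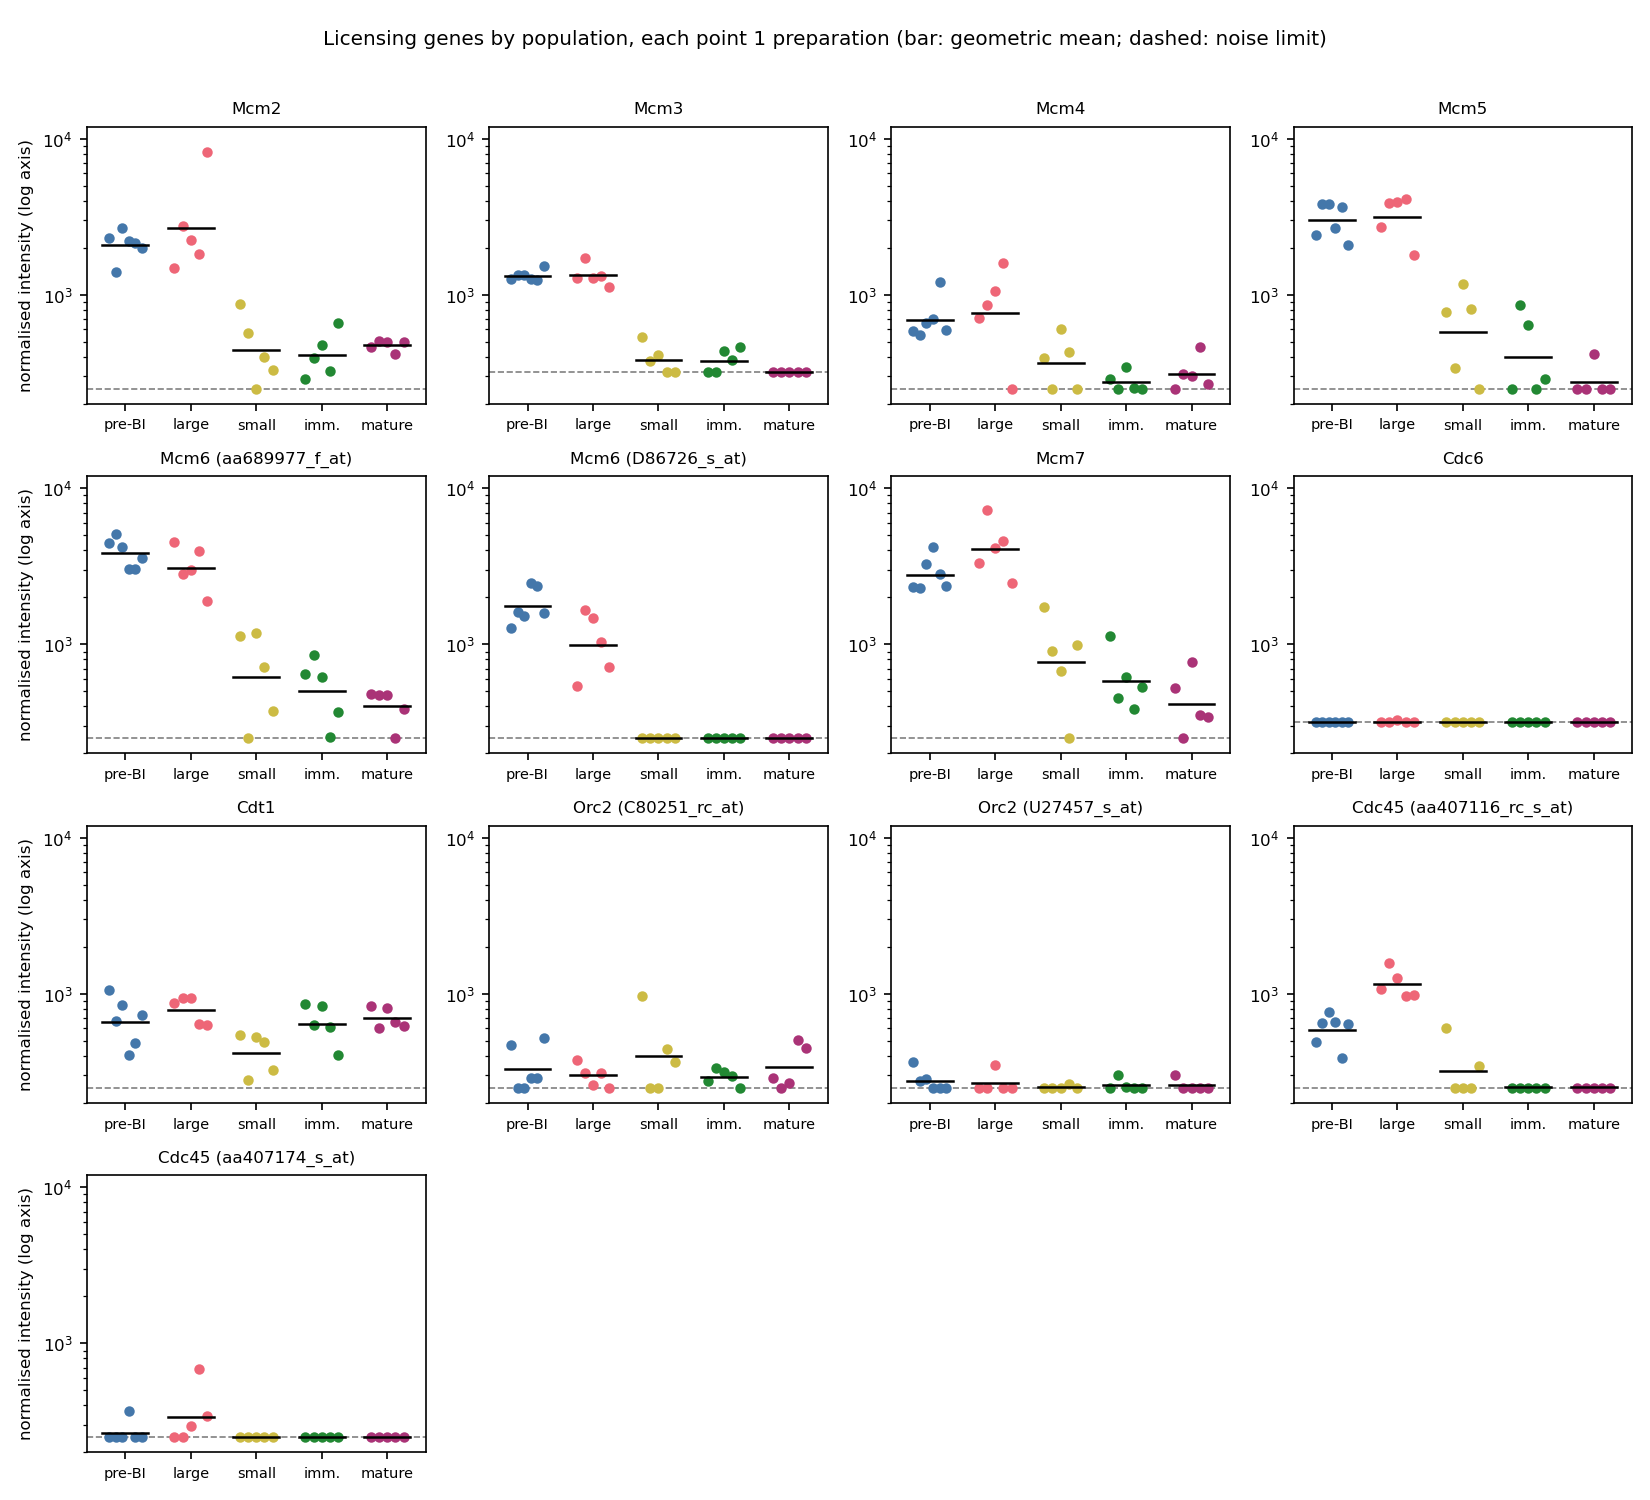
Normalised intensity of each probe set (log axis) in each preparation, grouped by population, with values under the noise limit drawn at it (dashed line) and the geometric mean as a bar. The Mcm panels drop between large and small pre-BII cells, Cdt1 is lowest in small pre-BII cells, and the populations overlap in both Orc2 panels.

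Mcm2 is a subunit of the hexamer and the one that carries histones at the fork. Its level in pre-BI cells ranged from 1400 to 2693 with a median of 2184. In large pre-BII sorts 1, 2, 8, 9 and 10 it read 1486, 2767, 2249, 1825 and 8266, and in small pre-BII sorts 1, 3, 8, 9 and 10 it read 880, 567, 241, 398 and 332. One large preparation, sort 10, stood far above the rest, and every small preparation lay under every large one. Immature sorts 1, 2, 8, 9 and 11 read 290, 392, 479, 327 and 663, and mature sorts 1, 3, 8, 9 and 11 read 463, 503, 497, 416 and 497. Mcm2 was 6.09-fold lower in small than in large pre-BII cells (log2 difference -2.61 ± 0.53 SE, adjusted p = 1.59e-05), and without large pre-BII sort 10 the fitted difference was -2.21 (adjusted p = 1.75e-05). The 3 later populations overlapped one another.

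Mcm3, another subunit, had pre-BI and large pre-BII levels in one narrow range. Pre-BI cells ranged from 1241 to 1538 around a median of 1301, and large pre-BII sorts 1, 2, 8, 9 and 10 read 1292, 1718, 1292, 1329 and 1129. These groups overlapped, and their means differed 1.01-fold (adjusted p = 1). Small pre-BII sorts 1, 3, 8, 9 and 10 read 534, 375, 412, 264 and 236, immature preparations ranged from 221 to 460, and all 5 mature preparations, at 205 to 317, lay under the noise limit of the b set. The fall from large to small pre-BII cells was 3.49-fold (-1.80 ± 0.17 SE, adjusted p = 1.76e-06).

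Mcm4 was the subunit whose fall between the pre-BII cells did not pass. Pre-BI cells ranged from 556 to 1211 around a median of 628. Large pre-BII sorts 1, 2, 8, 9 and 10 read 713, 867, 1052, 1602 and 145, so the preparation with the highest Mcm2 had the lowest Mcm4, under the noise limit. Small pre-BII sorts 1, 3, 8, 9 and 10 read 396, 201, 603, 432 and 153, immature preparations 127 to 343 and mature preparations 226 to 464. Small pre-BII cells were 2.09-fold below large ones (-1.07 ± 0.51 SE, adjusted p = 0.224), and without large pre-BII sort 10 the fitted difference was -1.68 with an adjusted p of 0.00535. With all preparations kept and values floored at the noise limit, the fall also passed (-1.07, adjusted p = 0.0361). Over the 5 populations Mcm4 passed the F test (adjusted p = 0.0297).

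Mcm5, the subunit that closes the hexamer's gate with Mcm2, had almost no signal left in mature B cells. Pre-BI cells ranged from 2093 to 3836 around a median of 3177, and large pre-BII sorts 1, 2, 8, 9 and 10 read 2715, 3877, 3922, 4140 and 1813. Small pre-BII sorts 1, 3, 8, 9 and 10 read 780, 342, 1175, 812 and 118. The populations before and after that step did not overlap, and the small preparations differed among themselves from under the noise limit to well above it. Immature sorts 1, 2, 8, 9 and 11 read 50, 860, 645, 141 and 287. Mature sorts 1, 3, 8, 9 and 11 read 199, -122, 417, 12 and 81, so that 1 of 5 exceeded the noise limit. Mcm5 was 5.46-fold lower in small than in large pre-BII cells (-2.45 ± 0.48 SE, adjusted p = 0.00479) and at least 10.8-fold lower in mature B than in pre-BI cells (mean levels 117.4 and 3087, adjusted p = 2.24e-06).

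Mcm6 was read by 2 probe sets that agreed on the fall but not on how dim the later cells were. On D86726_s_at, pre-BI cells ranged from 1282 to 2485 around a median of 1601, large pre-BII sorts 1, 2, 8, 9 and 10 read 538, 1652, 1465, 1039 and 719, and all 15 later preparations lay between -276 and 190, under the noise limit. On aa689977_f_at, pre-BI cells ranged from 3038 to 5077, large pre-BII cells from 1908 to 4525, small pre-BII cells from 205 to 1183, immature cells from 254 to 852 and mature cells from 120 to 482. The ending of the latter name marks a probe set that may match related sequences, so its residual level is uncertain. Both fell from large to small pre-BII cells, at least 3.96-fold on the first (adjusted p = 4.43e-08) and 5.03-fold on the second (-2.33 ± 0.49 SE, adjusted p = 0.000689).

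Mcm7 completes the hexamer. Its level in pre-BI cells ranged from 2290 to 4185 around a median of 2591, and large pre-BII sorts 1, 2, 8, 9 and 10 read 3316, 7279, 4157, 4598 and 2466. Small pre-BII sorts 1, 3, 8, 9 and 10 read 1742, 902, 673, 178 and 994, immature preparations 384 to 1133 and mature preparations 144 to 769. The highest small preparation, sort 1, still lay under the lowest large one. Mcm7 fell 5.33-fold at that step (-2.41 ± 0.53 SE, adjusted p = 0.000755).

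Cdt1, which brings the hexamer to the origin and is destroyed during S phase, followed another course. It was the 1 probe set above the noise limit in all 26 preparations. Pre-BI cells ranged from 405 to 1063 around a median of 701, and large pre-BII sorts 1, 2, 8, 9 and 10 read 871, 944, 940, 637 and 635. Small pre-BII sorts 1, 3, 8, 9 and 10 read 542, 282, 533, 492 and 323, all under the large preparations. Immature sorts 1, 2, 8, 9 and 11 read 865, 628, 830, 613 and 404, and mature sorts 1, 3, 8, 9 and 11 read 833, 604, 814, 661 and 622. The mature preparations thus lay in the range of pre-BI cells and above every small pre-BII preparation. Levels of mature B and small pre-BII cells did not overlap in 4.9% of all tested probe sets. Cdt1 fell 1.89-fold from large to small pre-BII cells (-0.92 ± 0.24 SE, adjusted p = 0.0395), a call that was lost in 5 of 26 fits that left out 1 preparation (large sorts 1, 2 or 8, or small sorts 3 or 10, with adjusted p up to 0.129). Mature B cells were 1.67-fold above small pre-BII cells (0.74 ± 0.22 SE) and mature against pre-BI cells 1.05-fold, with adjusted p of 0.141 and 0.94.

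Cdc45, the helicase cofactor that joins when an origin fires, was read by 2 probe sets. On aa407116_rc_s_at, pre-BI cells ranged from 387 to 765 around a median of 643, and large pre-BII sorts 1, 2, 8, 9 and 10 read 1082, 1570, 1262, 969 and 986. Small pre-BII sorts 1, 3, 8, 9 and 10 read 608, 154, 182, 67 and 346, and all 10 immature and mature preparations, at -56 to 240, lay under the noise limit. Large pre-BII cells were the high point, above every other preparation of the study. Cdc45 fell at least 3.61-fold from large to small pre-BII cells (mean levels 1174 and 271.3, adjusted p = 0.000251). On aa407174_s_at, 4 of 26 preparations exceeded the limit, 3 of them large pre-BII (294, 689 and 340) and 1 pre-BI (371), and the same comparison did not pass (adjusted p = 0.298). Ufd1, whose start lies 322 bases from that of Cdc45 on the other strand, exceeded the limit in 1 of 26 preparations.

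Cdc6 and Orc2 gave little signal. Cdc6, the loader that Orc recruits, exceeded the noise limit in 1 of 26 preparations, large pre-BII sort 8 at 326, and otherwise ranged from -261 to 257, so its course is not resolved. Orc2 on C80251_rc_at exceeded the limit in 19 of 26 preparations, with population medians from 287 in mature B cells to 364 in small pre-BII cells. The 5 groups overlapped throughout, and the highest preparation was small pre-BII sort 1 at 972. On U27457_s_at 8 of 26 preparations exceeded the limit, with medians from 165 to 233. Neither probe set of Orc2 passed the F test (adjusted p = 0.972 and 0.94). From large to small pre-BII cells they differed by 0.41 ± 0.37 and -0.08 ± 0.10 on the log2 scale, with adjusted p of 0.831 and 0.873.

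Between pre-BI and large pre-BII cells no member of the family passed the test, while 6 of 22 mitosis genes did. From pre-BI to large pre-BII cells none of the 13 probe sets passed, against 1.94% of all tested in either direction, and the median log2 difference was 0.07. Cdc45 on aa407116_rc_s_at stood highest in this comparison, 1.98-fold higher in large pre-BII cells (adjusted p = 0.3). Its levels did not overlap (387 to 765 against 969 to 1570), which held for 2.82% of all tested probe sets. It was higher in all 5 pairs of preparations with the same sort number. Mcm6 on D86726_s_at leaned the other way, 1.77-fold lower in large pre-BII cells (adjusted p = 0.232). Both passed when values were floored at the 60th percentile (adjusted p = 0.00413 and 0.0317) or at the noise limit (0.00226 and 0.0246). Taken by sorts, the fitted difference of Cdc45 was 1.06 in sorts 1 to 3 and 0.96 in sorts 8 to 11, and that of Mcm6 was -0.63 and -1.03.

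**Figure D3:**
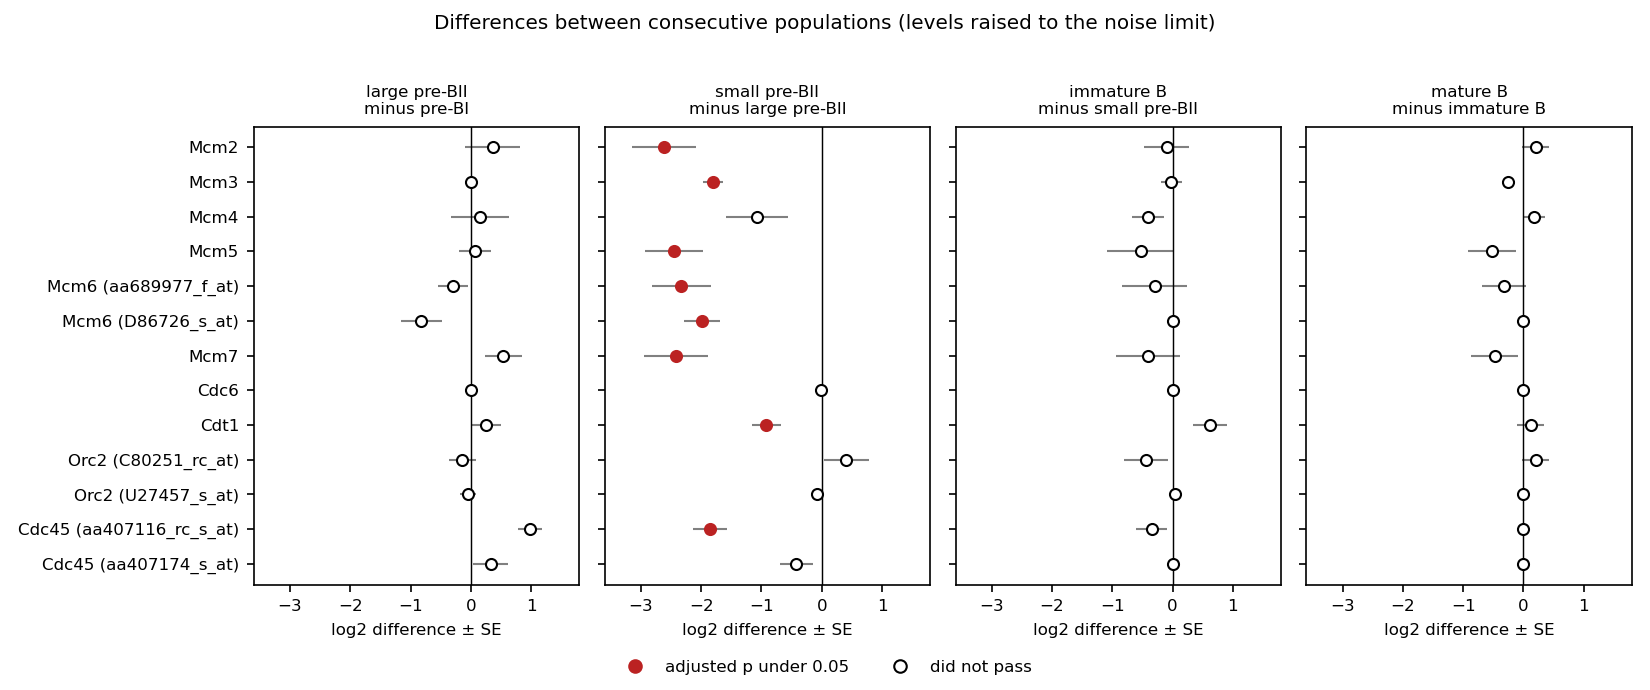
Log2 difference with SE (levels raised to the noise limit) of each probe set between consecutive populations; filled points passed at an adjusted p under 0.05. All 8 filled points lie in the comparison of small with large pre-BII cells, to the left of 0.

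A list of 22 measured genes of G2 and mitosis gave the contrast. In the same comparison of large pre-BII with pre-BI cells, 6 of the 22 rose and none fell, against 0.88% of all tested probe sets that rose. The median log2 difference of the 22 was 1.03. Prc1, which bundles the midzone of the spindle, rose 2.44-fold (adjusted p = 0.000227), and Ube2c, the ubiquitin carrier of the anaphase-promoting complex, rose 3.52-fold (adjusted p = 0.0016). Summed levels of the 22 ranged from 29744 to 42580 in pre-BI and from 68161 to 74877 in large pre-BII cells, without overlap. Summed levels of the 6 Mcm genes ranged from 12132 to 15993 and from 14048 to 19348, and overlapped. Taken by sort number, both sums were higher in large pre-BII cells in all 5 pairs. In sort 10 the higher Mcm sum rested on Mcm2, at 8266 in large pre-BII and 1990 in pre-BI cells. Mcm7 was slightly higher in that large preparation (2466 against 2361), and Mcm3, Mcm4, Mcm5 and Mcm6 on aa689977_f_at were lower. The Mcm sums in sorts 1, 2, 8, 9 and 10 were 13373, 14463, 14068, 14178 and 12132 in pre-BI cells and 14048, 19348, 15674, 17440 and 15727 in large pre-BII cells. Of the other lists, 1 of 13 kinase and destruction genes rose (Ccnb2, a mitotic cyclin, 2.18-fold, adjusted p = 0.0041) and 1 of 7 E2F and pocket protein genes (Rb1, the retinoblastoma protein, 2.34-fold, adjusted p = 0.00541). None of 19 polymerase and fork genes and none of 6 nucleotide genes passed. The difference between the lists was not tested.

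**Figure D4:**
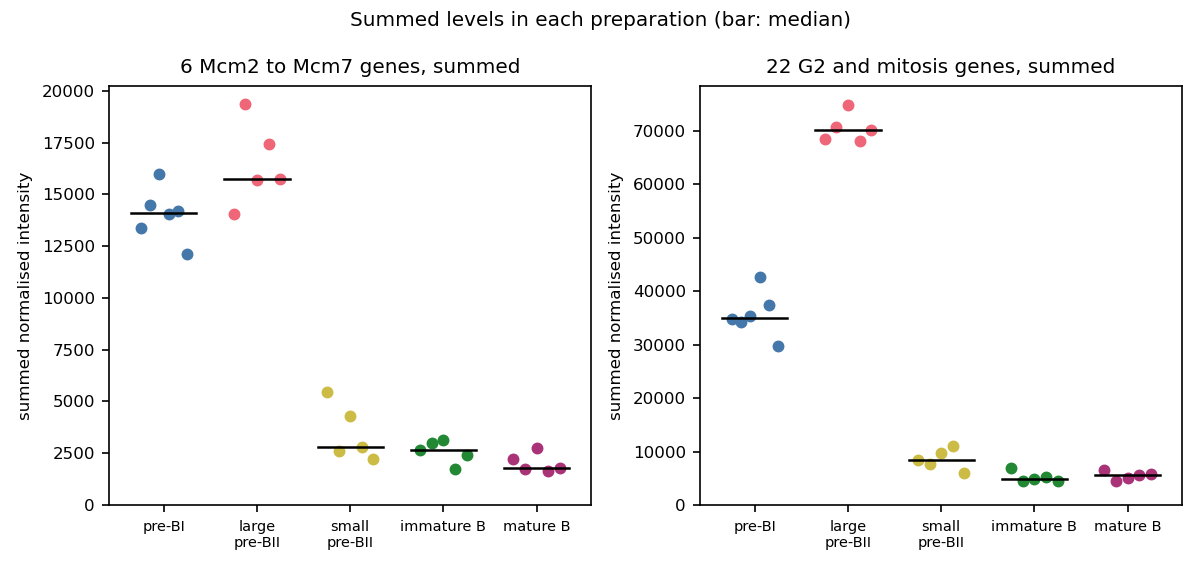
Summed normalised intensity of the 6 Mcm2 to Mcm7 genes (left) and of 22 G2 and mitosis genes (right), 1 point per preparation, with the median as a bar. The Mcm sums of pre-BI and large pre-BII cells overlap, although each is higher in large pre-BII cells within its sort, whereas the mitosis sums of large pre-BII cells (68161 to 74877) lie above all others.

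The fall between large and small pre-BII cells was read again within the sorts. Within sorts 8 to 11, with 3 preparations on each side, 6 of 13 probe sets fell, against 2.43% of all tested there, and the median log2 difference was -2.08. Within sorts 1 to 3, with 2 on each side, 1 of 13 fell (Mcm6 on D86726_s_at), against 1.06% of all tested there, and the median was -1.74. The fitted difference of Mcm2 was -1.52 in the earlier and -3.35 in the later sorts. In the same order it was -1.74 and -2.08 for Mcm3, -2.65 and -2.67 for Mcm5, and -1.97 and -2.88 for Mcm7. It was -1.21 and -0.72 for Cdt1 and -2.09 and -2.59 for Cdc45 on aa407116_rc_s_at. All of these were negative in both sets of sorts.

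Other licensing and firing factors were few on the arrays. Of 8 that were present and 7 tested, 3 fell from large to small pre-BII cells and none rose, against 3.22% of all tested probe sets that fell. Mcm10, which helps the helicase leave the origin, fell at least 4.55-fold (adjusted p = 3e-07), and Wdhd1, a link between helicase and polymerase, fell at least 4.61-fold (adjusted p = 4e-04). Dbf4, the activator of the kinase that phosphorylates the hexamer, fell from a mean level of 549.9 to 112.5 (adjusted p = 0.00224), with 4 of 5 large and 1 of 5 small preparations above the limit. Among kinases and destruction factors that control licensing, 9 of 13 tested genes fell. Cdk1, a kinase that bars a second licensing, fell 7.14-fold (adjusted p = 2.88e-08), the mitotic cyclin Ccnb2 5.43-fold (adjusted p = 4.78e-08) and Ccna2, the cyclin of S phase, at least 12-fold (adjusted p = 2.35e-07). Dtl, the adaptor that marks Cdt1 for destruction and the profile nearest to the members, fell 2.62-fold (adjusted p = 0.000229).

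The machinery downstream of licensing fell as well. Of 19 polymerase and fork genes tested, 12 fell. Dna2, a nuclease that trims lagging-strand flaps, fell at least 1.7-fold (adjusted p = 1.2e-05), Pcna, the sliding clamp, 2.15-fold (adjusted p = 0.000114), Lig1, which seals Okazaki fragments, 5.69-fold (adjusted p = 0.000139) and Prim1, a primase subunit, at least 5.82-fold (adjusted p = 0.000216). Of 6 genes that supply S phase nucleotides and histones, 5 fell, with Tk1, the thymidine kinase of S phase, down at least 4.49-fold (adjusted p = 3.99e-07) and Rrm1, which encodes the catalytic chain of ribonucleotide reductase, down 7.33-fold (adjusted p = 1.16e-05). Of 7 E2F and pocket protein genes tested, 2 fell: Rbl1, which encodes p107, by at least 4.66-fold (adjusted p = 8.76e-08) and the repressor E2f8 by at least 7.75-fold (adjusted p = 9.05e-07). All 22 G2 and mitosis genes fell, Prc1 by at least 12.7-fold (adjusted p = 6.87e-15) and Mki67 by 7.77-fold (adjusted p = 8.2e-10). The counts of these lists stand against 3.22% of all tested probe sets that fell. Median log2 differences of these lists in the order named were -1.37, -1.93, -1.45, -2.34, -0.31 and -2.85, against 0.06 over all tested.

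After the small pre-BII stage no licensing probe set passed the test. None of the 13 did so between small pre-BII and immature B cells, where 2.24% of all tested did, or between immature and mature B cells, where 1.35% did. Median log2 differences of the members were -0.24 and -0.13. Cdt1 stood 1.54-fold higher in immature B than in small pre-BII cells (0.62 ± 0.28 SE, adjusted p = 0.388). Between small pre-BII and mature B cells, a comparison added after the values were seen, none of the 13 passed either, against 4.62% of all tested in either direction. Fitted differences were negative in 10 of the 13, and Mcm5 came nearest, with mean levels of 645.5 in small pre-BII and 117.4 in mature B cells (adjusted p = 0.0933).

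Some dividing-cell genes did change late. Mki67 fell 2.63-fold from small pre-BII to immature B cells (adjusted p = 0.000218), and Rrm2, the small subunit of ribonucleotide reductase, fell 3.7-fold (adjusted p = 0.0102). Rfc1, a clamp loader subunit, rose at least 1.92-fold at the same step (adjusted p = 0.0147).

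Small pre-BII and mature B cells both lay below pre-BI cells in most of the family. These comparisons share the pre-BI preparations, so they are not independent. Between pre-BI and small pre-BII cells 7 of 13 probe sets (6 genes) fell, against 4.7% of all tested, with a median log2 difference of -1.78. Between pre-BI and mature B cells 7 of 13 (6 genes) fell, against 5.9% of all tested, with a median of -2.24. The genes were Mcm2, Mcm3, Mcm5, Mcm6, Mcm7 and Cdc45 in both. The folds from pre-BI to mature B cells were 4.4 for Mcm2, at least 4.16 for Mcm3, 6.76 for Mcm7, at least 2.32 for Cdc45 and 9.51 and at least 6.99 for the probe sets of Mcm6, with adjusted p from 1.46e-10 to 8.79e-05 over these and Mcm5. Mcm4 was 2.21-fold lower and missed the threshold (adjusted p = 0.107). Its levels did not overlap (556 to 1211 against 226 to 464), which held for 8.57% of all tested probe sets. Mcm4 passed without large pre-BII sort 10 (adjusted p = 0.0212) and with the floor at the 60th percentile (0.0147) or the noise limit (0.0098). Cdc45 fell at least 1.83-fold from pre-BI to small pre-BII cells (adjusted p = 0.0201), and this call was lost without small pre-BII sort 3, 8 or 9 (adjusted p up to 0.0875).

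The order of populations by mean level was therefore much the same for each subunit: pre-BI and large pre-BII cells at the top, and small pre-BII, immature and mature B cells at the bottom. Neighbours within the top and within the bottom group were not separated by the test. The highest mean was in large pre-BII cells for Mcm7, Cdt1 and Cdc45 and in pre-BI cells for Mcm6, whichever single preparation was left out. It was also in large pre-BII cells for Mcm2, Mcm3, Mcm4 and Mcm5, but there 1 large preparation set the rank: sort 10 for Mcm2 (mean 2082 without it, against 2127 in pre-BI cells), sort 2 for Mcm3, and sort 9 for Mcm4 and Mcm5. The lowest mean was in mature B cells for Mcm3, Mcm5, Mcm7 and Cdc45 on aa407116_rc_s_at, and in small pre-BII cells for Cdt1.

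**Figure D5:**
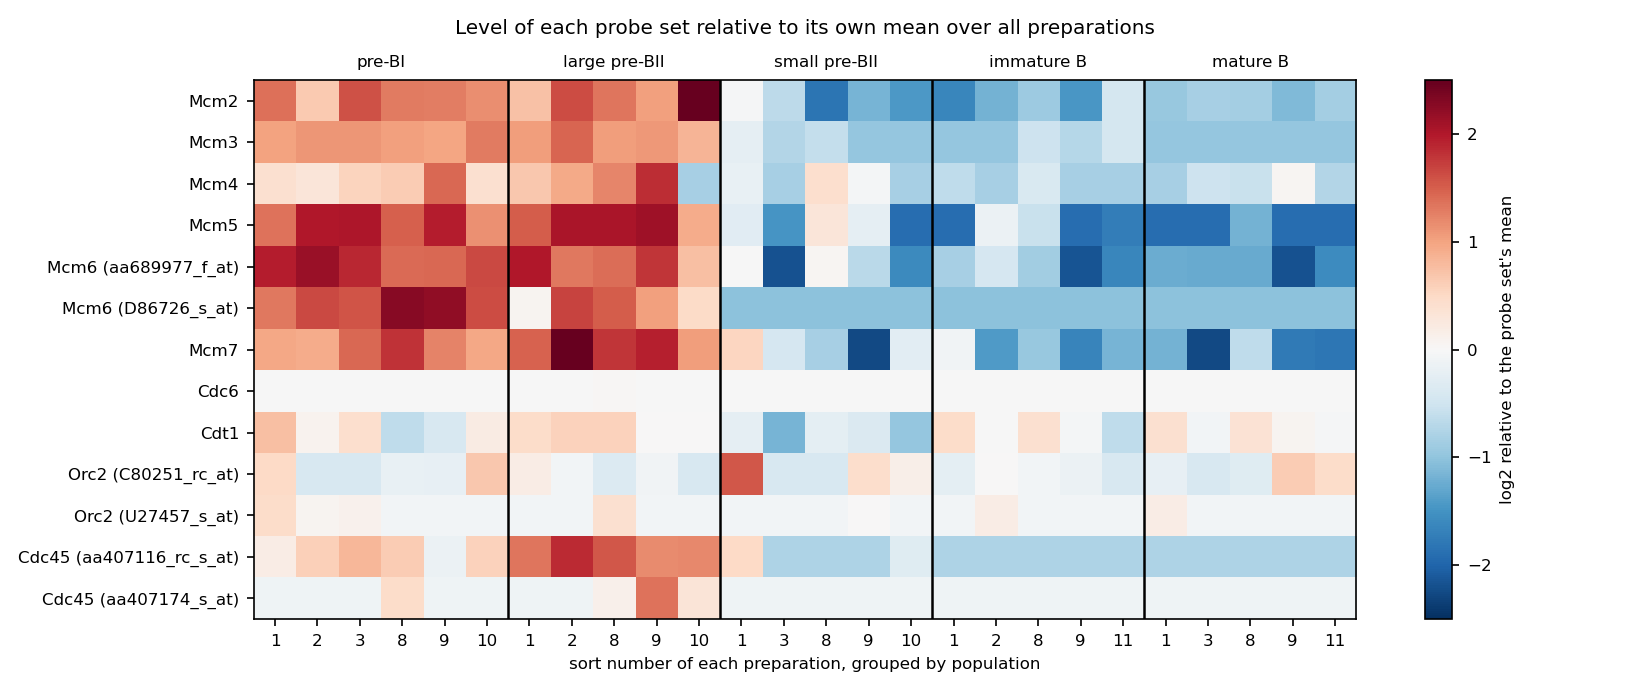
Log2 level of each probe set (rows) in each preparation (columns, by sort number within population), relative to that probe set's mean over 26 preparations, with levels raised to the noise limit. In the 7 Mcm rows, 76 of 77 values in pre-BI and large pre-BII cells lie above the row's mean (all but Mcm4 in large sort 10), and 5 of 105 values after them do, 3 of these in small pre-BII sort 8.

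The Mcm probe sets moved together across populations and much less within them. Over the 26 preparations, the 21 pairs among the 7 Mcm probe sets had Pearson correlations from 0.45 to 0.92 with a median of 0.8. After each population's mean was removed, the range was -0.58 to 0.56 and the median 0.05, the lowest being Mcm2 with Mcm4. All these values share arrays and normalisation and are given as a description. Against the mean of the other members, Mcm6 had the highest correlation (0.92 on aa689977_f_at), and Cdt1 (0.36) and Orc2 (0.02 and 0.3) were among the lowest, with the second probe set of Cdc45 at 0.26.

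Single preparations stood out within their population in the Mcm genes. Large pre-BII sort 10 had the lowest level of its population in 5 of the 6 Mcm genes, read by their brightest probe set, and the highest in Mcm2. For Mcm6 this held on aa689977_f_at, while on D86726_s_at the lowest was sort 1 (538) and sort 10 read 719. Small pre-BII sorts 1 and 8 each had the highest level of their population in 3 of the 6. Sort 1 had a summed Mcm level of 5457 against 2210 to 4287 in the other small preparations. Its summed G2 and mitosis level, 8331, was inside the range of the others (5992 to 11072).

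The profiles nearest to the members' mean among all other named probe sets, over 26 preparations, were Dtl (r = 0.94), Anln, a scaffold of the cleavage furrow (0.93), Cdk1 (0.93), Ppia, the isomerase cyclophilin A (0.92), and Prc1 (0.91). Nearest to Orc2 on C80251_rc_at were Ppox, an enzyme of haem synthesis (0.71), Fmo1 (0.66), Gdf9 (0.66), Wfdc2 (0.66) and Bex4 (0.65). The lower values for Orc2 accompany levels close to the noise limit.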

How the data were processed

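The values used are intensities that the authors deposited in a table for each array set, linear and partly negative. Scanning, summarising and scaling are not given in the sources used here. Of 55 arrays, 54 were kept, because 2 mature B arrays held identical values. With 110 control probe sets removed, each table was quantile-normalised. Second arrays of a preparation were averaged, values were floored at the 40th percentile of the table (87.6 and 6.89), and log2 was taken. Testing took the probe sets that exceeded the floor in 5 or more of 26 preparations, with limma 3.58.1 in R 4.3.3 (lmFit, eBayes with a trend), without covariates, at an adjusted p under 0.05. A floor far under the noise limit spreads dim values on the b set. The noise limit is 2 robust standard deviations from the negative values. The procedure was tested on simulated data.

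All 10 members were named whatever their result, as were at most 4 passing genes of a list and comparison in order of adjusted p, the 5 nearest profiles, and the nearest measured gene that the promoter table starts within 1000 bases on the other strand. Members, lists, noise limit and comparisons were chosen with earlier results of these data known. Marker and gene lists were read by their brightest probe set; megakaryocyte markers were not measured here. Sort numbers come from the labels. Deviations of same-numbered preparations correlated above 0.1 in every pair for large pre-BII with pre-BI (0.114 to 0.297), immature with small pre-BII (0.137 to 0.251) and mature with immature B cells (0.116 to 0.205), so the numbers were taken to pair there and not elsewhere. Alternatives changed the scaling, floor, filter, trend, block, sorts, second arrays and single preparations.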

Additional observations from a re-analysis of the deposited data

Results flagged for a closer look

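In 10 of 52 sets of preparations (1 probe set in 1 population), a single preparation lay far from the others by Dixon's criterion; chance gives about 1 in 20. Levels were raised to the noise limit first, so in the dim probe sets a preparation just above the limit stands apart from others drawn at it.

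Among the brighter genes, Mcm3 read 1538 in pre-BI sort 10 against 1241 to 1342 in the other pre-BI preparations, and Mcm4 read 1211 in pre-BI sort 9 against 556 to 699. Mcm5 read 417 in mature B sort 8, where the others, at -122 to 199, all lay under the noise limit and were drawn at it.

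The dim probe sets gave the rest. Cdc6 read 326 in large pre-BII sort 8 against -83 to 175, and Cdc45 on aa407174_s_at read 371 in pre-BI sort 8 against 28 to 242. Orc2 on U27457_s_at stood apart once in every population: 364 in pre-BI sort 1, 350 in large pre-BII sort 8, 266 in small pre-BII sort 9, 300 in immature sort 2 and 300 in mature sort 1.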

How the results depend on the processing

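The fall of the family from large to small pre-BII cells, 8 of 13 probe sets, gave 5 with a floor at the 25th percentile, where Mcm5, Cdt1 and Cdc45 were lost, and 1 within sorts 1 to 3. It gave 7 to 9 when single preparations were left out. From pre-BI to small pre-BII cells the count of 7 became 4 on values as deposited and 3 within sorts 1 to 3. Mcm5 and Cdc45 on aa407116_rc_s_at also lost this call with the floor at the 25th percentile (adjusted p = 0.0622 and 0.339). Within sorts 8 to 11 they lost it as well (0.0823 and 0.0603). From pre-BI to mature B cells, Cdc45 on aa407116_rc_s_at lost its call within sorts 1 to 3 (adjusted p = 0.123). From pre-BI to large pre-BII cells the count of 0 became 2 when the floor was the 60th percentile, and also 2 when it was the noise limit. Between small pre-BII and mature B cells the count of 0 became 2 with the lower floor, 1 with the sort number as a replicate block, and ranged from 0 to 1 over single preparations left out (Mcm5 without small sort 10 or mature sort 8, Mcm7 without small sort 9). The replicate block left 8 of 13 in the fall from large to small pre-BII cells and 0 from pre-BI to large pre-BII cells. With it Mcm4 passed from pre-BI to small pre-BII cells (-1.12, adjusted p = 0.031) and from pre-BI to mature B cells (-1.34, adjusted p = 0.0118), and Mcm5 from small pre-BII to mature B cells (-2.01, adjusted p = 0.0224). It changed no other call of a member. Same-numbered preparations correlated at 0.003 to 0.243 for small with large pre-BII cells, -0.074 to 0.205 for small pre-BII with pre-BI, 0.06 to 0.242 for mature with pre-BI and -0.008 to 0.169 for mature with small pre-BII cells. Cdt1 in the fall from large to small pre-BII cells also lost its call with trimmed-mean scaling (adjusted p = 0.0523), without the trend (0.0549) and on values as deposited (0.776). In the same fall Mcm5 lost its call on values as deposited (adjusted p = 0.128), and Mcm4 gained one with the floor at the noise limit (0.0361). No called difference of a member changed sign under any alternative run. Why these counts moved was not tested, except that fits within sorts hold fewer preparations. Levels near or under the noise limit bound what can be said of Cdc6, Orc2, the second Cdc45 probe set and the later populations.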
